A study of Mus musculus with 141 samples.

Results

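The genes described here are 33 markers of B and T lymphocytes, followed through inguinal white adipose tissue (iWAT) across the inbred strains of a mouse resource, the Hybrid Mouse Diversity Panel (HMDP). They were chosen by name, and each of the 33 symbols matched 1 of the 36558 Ensembl identifiers in the deposited tables. By role they are 9 B cell genes, 5 immunoglobulin genes, 9 genes of the T cell receptor complex and T cell surface, 3 T cell signalling genes and 7 genes of homing, lymphoid organization and T cell subsets. The RNA-seq libraries, from 82 strains, are 67 with the title suffix for females and 74 with that for males. Each library is 1 mouse of its strain and sex, so no strain has a replicate within a sex, and 59 strains have a library of each sex. The strains are 24 classical inbred strains and 4 families of recombinant inbred lines, which carry fixed mixtures of 2 parental genomes: BXD (40 strains), AXB/BXA (11 strains), CXB and BXH. The BXD strain BXD24/TyJ-Cep290<rd16>/J, with a library of each sex, by its name also carries the rd16 allele of *Cep290*. All mice, and so every group compared here, received the high-fat, high-sucrose (HF/HS) diet for 8 weeks after chow until 8 weeks of age, with a 4 h fast before collection. No untreated, chow-fed or lymph node library is among them, and the labels name no batch.

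B lymphocytes carry on their surface an immunoglobulin that is paired with the signalling chains Cd79a and Cd79b, and T lymphocytes carry a receptor that signals through the Cd3 chains and Cd247. Naive cells of both kinds gather in lymph nodes, where stromal cells attract them through chemokines and separate them into B cell follicles and T cell zones. A mouse inguinal fat pad encloses a lymph node, which can be left in or cut away at dissection, while the fat around it holds fewer lymphocytes. In bulk tissue fewer cells of a type and less RNA per cell cannot be told apart.

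The 33 genes lie on 16 chromosomes of GRCm38. *Cd3g*, *Cd3d* and *Cd3e* are neighbours on chromosome 9 (44969572 to 45009627), *Cd8b1* and *Cd8a* on chromosome 6 (71322788 to 71379173), and the constant regions *Ighd* and *Ighm* on chromosome 12 (113406604 to 113422730). Of the 33 genes, 21 had a window in the RefSeq promoter table for GRCm38.p6, and the 250 bases before the RefSeq gene start were searched on both strands for 5 motifs. The octamer ATGCAAAT, known from immunoglobulin promoters, was in 1.6% of 32851 windows of all genes and in none of the 28 windows of these 21 genes. At such a share 28 windows are too few for an absence to be read. The runt factor motif TGTGGTTT was in 1.49% of all windows and also in none of these. CCCNNGGGA, the motif of the early B cell factor Ebf1, was in 5.6% of all windows and in that of *Cd22*. CTTTGAT, a motif of the TCF/LEF family to which the member *Tcf7* belongs, was in 3.21% of all windows and in that of *Cd3d*. GAGGAAG, a motif of Ets factors, was in 10.6% of all windows and in 6 of the 28, which belong to *Cd5*, *Lat*, *Lck*, *Ltb* and *Zap70*. The windows of 4 genes are shown as an example of each motif that was found, *Cd22* standing for the B cell genes, *Cd3d* and *Lat* for the T cell genes and *Ltb* for lymphoid organization, with the matched letters in capitals, which in *Cd22* are 2 overlapping matches, 1 on each strand. They are *Cd22* at chr7:30879029-30879278 on the minus strand, *Cd3d* at chr9:44981536-44981785 on the plus strand, *Lat* at chr7:126369569-126369818 on the minus strand and *Ltb* at chr17:35194257-35194506 on the plus strand. A match describes the letters only. The *Cd22* window lies inside the gene as the GENCODE annotation draws it (30865402 to 30880342). By the same annotation the *Ltb* window reaches past the gene start at 35194439, and the *Lat* window just past the start at 126369570.
Cd22: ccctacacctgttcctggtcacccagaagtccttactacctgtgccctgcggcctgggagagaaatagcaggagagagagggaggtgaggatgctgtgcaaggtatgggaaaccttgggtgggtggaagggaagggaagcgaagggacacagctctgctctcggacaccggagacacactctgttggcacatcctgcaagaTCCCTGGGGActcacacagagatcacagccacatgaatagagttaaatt
Cd3d: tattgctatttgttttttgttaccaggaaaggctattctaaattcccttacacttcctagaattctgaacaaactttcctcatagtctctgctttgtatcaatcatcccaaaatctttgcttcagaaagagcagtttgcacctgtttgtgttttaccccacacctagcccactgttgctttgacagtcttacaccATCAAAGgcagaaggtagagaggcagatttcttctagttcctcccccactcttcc
Lat: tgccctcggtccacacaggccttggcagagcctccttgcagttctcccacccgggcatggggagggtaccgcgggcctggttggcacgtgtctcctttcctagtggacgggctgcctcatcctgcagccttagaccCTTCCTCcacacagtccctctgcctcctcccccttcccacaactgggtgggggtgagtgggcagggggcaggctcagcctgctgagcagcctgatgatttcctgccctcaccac
Ltb: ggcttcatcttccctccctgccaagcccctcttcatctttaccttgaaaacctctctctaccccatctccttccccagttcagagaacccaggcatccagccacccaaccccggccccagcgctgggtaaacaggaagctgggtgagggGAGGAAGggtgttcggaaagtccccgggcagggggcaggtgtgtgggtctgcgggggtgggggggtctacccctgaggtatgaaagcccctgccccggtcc

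As TPM values, which are scaled for transcript length and add to the same total in every library, the B cell genes fell into a low and a high range. *Cd79a*, the signalling chain of the B cell receptor, was between 0.127 and 271 TPM with a median of 2.27 TPM. It was under 1 TPM in 49 libraries, from 1 to 2 TPM in 18, from 2 to 5 TPM in 7 and from 5 to 10 TPM in 2. Above that, 3 libraries were from 10 to 20 TPM, 7 from 20 to 50 TPM, 24 from 50 to 100 TPM, 28 from 100 to 200 TPM and 3 at 200 TPM or more. A library was therefore described as at lymph node level when *Ms4a1*, *Cd79a* and *Cd79b* were each at 10 TPM or more. This minimum is a convention, and it chooses the libraries by 3 of the genes themselves, so the levels on either side of it are a description without a test.

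By this measure 63 libraries (44.7% of all) were at lymph node level and 78 were below it. The count was 65 with a minimum of 5 TPM, 62 with 20 TPM and 39 with 50 TPM, and 60 when *Cd3d*, *Cd3e* and *Cd3g* also had to reach 10 TPM. The libraries just below the minimum were the male and female libraries of PL/J, with 9.11 and 4.48 TPM of *Ms4a1*, and the female library of BXD14/TyJ with 7.07 TPM. Those just above it were the male libraries of BXD49/RwwJ (10.2 TPM) and BXH6/TyJ (20.95 TPM) and the female library of SM/J (22.2 TPM). Estimated counts per library, the depth, were between 11.7 M and 38.2 M (median 29.2 M) at lymph node level and between 6.27 M and 78.6 M (median 30.9 M) below it.

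**Figure D1:**
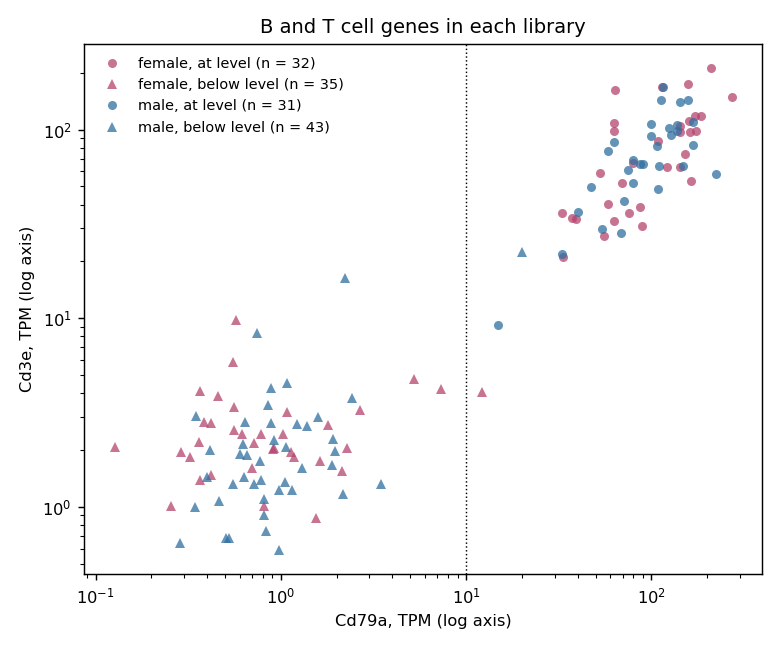
*Cd79a* (x axis) against *Cd3e* (y axis) in TPM on log axes, 1 point per library, with color for sex and shape for lymph node level, and a dotted line at 10 TPM of *Cd79a*. The libraries form a low and a high cloud, and the 2 triangles to the right of the line are the PL/J male and BXD14/TyJ female libraries, in which *Ms4a1* was under 10 TPM.

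The ratio of the 2 medians, at lymph node level to below it, was between 46.5 and 182 for the B cell genes, with a median of 110 over the 9 genes, 3 of which chose the libraries. *Ms4a1*, which encodes the surface protein CD20, had a median of 0.572 TPM (0.180 to 9.11) below lymph node level and 62.8 TPM (10.2 to 174) at it. *Cd79a* had medians of 0.814 TPM (0.127 to 19.97) and 99.2 TPM (14.8 to 271), and its partner *Cd79b* 1.63 TPM (0 to 18.3) and 112.1 TPM (19.7 to 275). These are the 3 genes that set the level. Among the other 6 B cell genes the medians were at most 1.58 TPM below lymph node level and between 21.3 and 79.8 TPM at it. *Cr2*, the complement receptor of B cells and follicular dendritic cells, had the widest ratio of medians, 182 (0.251 against 45.6 TPM). *Cd22*, an inhibitory coreceptor, had the narrowest, 46.5 (1.58 against 73.6 TPM). Between these were *Fcer2a*, the low-affinity IgE receptor (0.706 against 79.8 TPM), *Fcmr*, the IgM receptor (0.545 against 60.99 TPM), *Pax5*, the transcription factor that fixes B cell identity (0.342 against 31.2 TPM), and *Blk*, a kinase of the Src family (0.267 against 21.3 TPM).

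The T cell genes separated along the same libraries. Over the 9 T cell surface genes the median ratio was 32.97, and single genes reached into the range of the B cell genes, as *Cd8b1* with 74.6. *Cd3e* had a median of 2.03 TPM (0.590 to 22.4) in the 78 libraries below lymph node level and 68.8 TPM (9.24 to 212) in the 63 at it. *Cd3d* had medians of 1.73 and 34.5 TPM and *Cd3g* of 2.90 and 95.7 TPM. Of the coreceptors, *Cd4* had medians of 1.04 and 33.99 TPM, *Cd8a* of 0.589 and 34.1 TPM and *Cd8b1* of 0.389 and 29.05 TPM, so that the 3 were at a like level per transcript length in the high range. The surface genes *Cd5* (0.378 and 24.0 TPM) and *Cd2* (3.93 and 65.7 TPM) and the signalling genes *Lck* (2.57 and 73.5 TPM), *Zap70* (0.625 and 13.4 TPM) and *Lat* (1.44 and 40.04 TPM), which pass on the signal of the receptor, had ratios of medians between 16.7 and 63.4. *Cd247*, the zeta chain of the receptor, had the smallest of the T cell genes, 4.46. Its median was already 6.13 TPM below lymph node level against 27.3 TPM at it, and 27 of the 78 libraries below lay within the range of those at the level.

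Among the genes of homing and subsets, *Ltb*, a cytokine of lymphoid organ formation, had medians of 1.70 and 62.9 TPM. *Ccr7*, which guides cells into the T cell zone, had 0.470 and 31.6 TPM, and *Cxcr5*, which guides them into the follicle, 0.174 and 14.7 TPM. *Tcf7*, a transcription factor of naive T cells, had 1.33 and 73.4 TPM, and *Cd27*, a costimulatory receptor, 1.08 and 40.2 TPM. *Foxp3*, which marks regulatory T cells, was the lowest of all 33 genes in the high range, with 0.162 and 4.28 TPM. *Il7r*, the receptor of a survival cytokine, overlapped most in this group, with medians of 3.62 and 37.6 TPM and 32 libraries below the level within the range of those at it.

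The immunoglobulin genes were the least alike. *Ighd*, the IgD constant region of naive B cells, had medians of 6.15 and 253 TPM, *Iglc2*, a lambda light chain constant region, 1.44 and 110 TPM, and *Igkc*, the kappa light chain constant region, 19.3 and 725 TPM. *Iglc2* has a near-identical copy in *Iglc3*, and how reads were split between the pair is uncertain. *Jchain*, which joins secreted IgM and IgA and marks antibody-secreting cells, had medians of 2.50 and 27.8 TPM with wide overlap, since 57 of the 78 libraries below the level lay in the range of those at it. *Ighm*, the IgM constant region, hardly separated at all. Its median was 490 TPM (16.4 to 1020) below lymph node level and 645 TPM (173 to 4555) at it, a ratio of 1.32, and 64 of the 78 lower libraries were inside the upper range. Many libraries with low *Cd79a* thus still listed *Ighm* at a high level. The female library of BXD69/RwwJ, near the top of the lower range, had 991 TPM of *Ighm*. Beside it were 0.698 TPM of *Cd79a*, 5.81 TPM of *Igkc* and 0.241 TPM of *Jchain*. The lowest *Ighm*, 16.4 TPM, was in the A/J female library, also below the level.

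**Figure D2:**
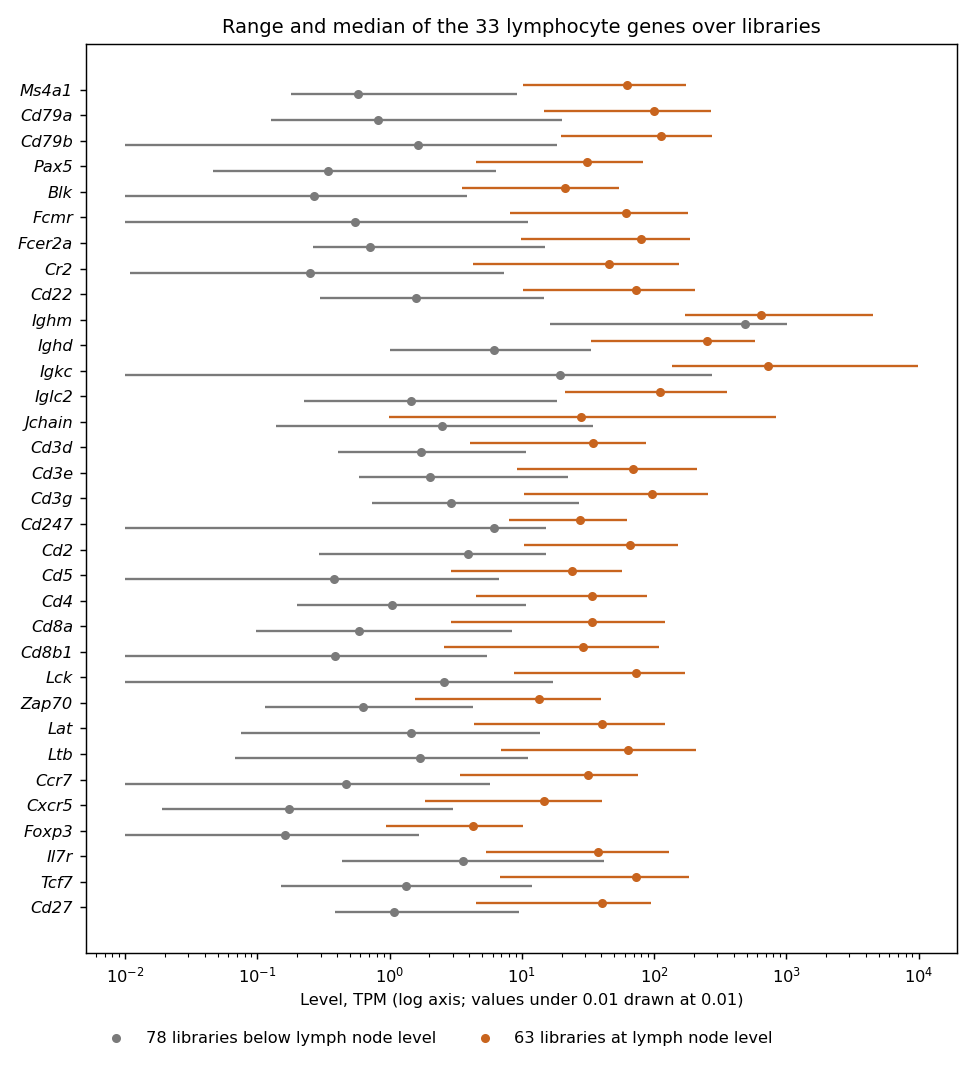
Range (line) and median (point) in TPM on a log axis for each of the 33 genes, over the 78 libraries below (gray) and the 63 at (orange) lymph node level. *Ighm* is the gene whose lines cover nearly the same values, with medians of 490 and 645 TPM, and *Jchain*, *Il7r* and *Cd247* also overlap widely.

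Over the 33 genes, the median was more than 10 times higher at lymph node level in 31, and 3.62% of the 15038 genes with a mean of at least 1 TPM had such a ratio. No library below the level reached any library at it for 3 genes, *Ms4a1*, *Cd79b* and *Iglc2*, against 0.153% of all genes, and for 20 more genes only 1 to 3 libraries did. Since *Ms4a1*, *Cd79a* and *Cd79b* set the level, nothing is read from these counts. No library listed 0 TPM for 23 of the 33 genes. Most of the zeros were in the female library of BXD34/TyJ, which was the shallowest at 6.27 M counts.

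Within the 63 libraries at lymph node level the B cell genes still followed each other and so did the T cell genes. These rank correlations are across libraries that share tissue, scaling and dissection, and are given as a description. Spearman's rho with *Cd79a* was between 0.82 (*Cr2*) and 0.98 (*Cd79b*) for the other B cell genes, and between 0.63 (*Cd247*) and 0.82 (*Cd2*) for the T cell surface genes. With *Cd3e* the order turned round, with rho between 0.90 (*Cd8b1*) and 0.98 (*Cd3g*) for the T cell surface genes and between 0.61 (*Fcmr*) and 0.71 (*Ms4a1*) for the B cell genes. *Cxcr5* (rho of 0.95 with *Cd79a* and 0.73 with *Cd3e*) went with the B cell genes, and *Ccr7* (0.73 and 0.95), *Tcf7* (0.65 and 0.97), *Cd27* (0.70 and 0.95) and *Il7r* (0.61 and 0.91) with the T cell genes. *Ltb* (0.83 and 0.88) was near to both. In the 78 libraries below the level the links were looser, with a median rho of 0.72 with *Cd79a* among the B cell genes (*Cd79a* itself counted as 1) and 0.68 with *Cd3e* among the T cell surface genes on the same count.

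The genes outside the list with the most similar pattern over all libraries were lymphocyte genes as well. For *Cd79a* the 10 highest included *Fcrla*, *Iglc3*, *Pou2af1*, *Spib*, *B3gnt5*, *H2-Ob*, *Siglecg* and *Fcrl1* (rho of 0.94 to 0.92). For *Cd3e* they included *Trbc2*, *Bcl11b*, *Skap1*, *Cd6*, *Trac*, *Cd40lg*, *Cd96*, *Trbc1* and *Tespa1* (0.96 to 0.94). *Ighm* had its highest rho among the 32 other members with *Ighd*, at 0.51, which was rank 491 among 15038 genes.

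Other cell types moved with these levels. The summed level of 6 lymph node stroma genes, among them the chemokines *Ccl19*, *Ccl21a* and *Cxcl13*, had a median of 11.5 TPM (1.96 to 428) below lymph node level and 904 TPM (66.9 to 3499) at it. In the libraries below the level the medians of *Madcam1*, *Chst4* and *Glycam1* were under 1 TPM, that of *Chst4* being 0. The largest sum there was mostly *Glycam1*, which reached 373 TPM and is also a milk protein gene. The sum of 5 adipocyte genes was lower at the level (median 27426 against 42174 TPM). The sums of 5 macrophage genes (208 against 227 TPM) and 4 lymphatic endothelial genes (21.3 against 19.4 TPM) were much alike. Single genes within them were not. Of the lymphatic genes, *Prox1* had medians of 0.841 against 0.156 TPM and *Flt4* of 3.204 against 4.148 TPM, while *Lyve1* and *Pdpn* were slightly higher. Of the macrophage genes, *Adgre1* (11.46 against 17.58 TPM) and *Mrc1* (35.78 against 51.03 TPM) were lower. *Cd68* and *Csf1r* were also lower, and *C1qa* was higher. The sums of plasma cell genes (9 genes, 80.2 against 19.1 TPM) and cytotoxic and NK cell genes (8 genes, 51.6 against 21.2 TPM) were higher. So were those of 10 other B cell genes (431 against 31.4 TPM) and 10 other T cell genes (587 against 26.8 TPM). Of the plasma cell genes, *Sdc1* (10.27 against 10.50 TPM) and *Tnfrsf17* (0.939 against 0.894 TPM) were much alike. Mammary epithelial genes (5 genes) were at 152 against 10.6 TPM with ranges that covered each other (0.376 to 916 and 0.113 to 1204 TPM), and 5 skeletal muscle genes at 21.3 against 27.2 TPM. The part of these cell types in the results below was not tested, apart from the fits that hold the B cell genes constant.

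Some libraries stood at the top for many of the 33 genes. The 5 highest in *Cd79a* were the female libraries of AXB12/PgnJ (271 TPM), BXD38/TyJ (209 TPM), BXA7/PgnJ (185 TPM) and BXD62/RwwJ (175 TPM) and the male library of BXH8/TyJ (222 TPM). The AXB12/PgnJ female also had the highest value of *Ighm* (4555 TPM), *Igkc* (9878 TPM), *Jchain* (835 TPM) and *Ltb* (207 TPM), among others, while the male of that strain had 0.642 TPM of *Cd79a*. The BXD38/TyJ female was highest in *Cd3e* (212 TPM), *Cd3g* (257 TPM), *Cd8b1* (110 TPM) and *Ccr7* (75.6 TPM). The library of NZW/LacJ labelled male was highest in *Cd4* (88.4 TPM), *Cd247* (62.2 TPM), *Il7r* (130 TPM) and *Tcf7* (185 TPM). *Cr2* was highest in the SJL/J female (154 TPM), *Fcer2a* in the BXH8/TyJ male (186 TPM), *Pax5* in the BXD40/TyJ male (82.6 TPM) and *Cd5* in the BTBR T<+> tf/J female (56.8 TPM). The 5 lowest in *Cd79a* were the females of BXD34/TyJ, 129X1/SvJ, LP/J and A/J and the male of KK/HlJ, all between 0.127 and 0.323 TPM.

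The sex labels were checked with 4 Y-linked genes, whose summed level had a median of 200 TPM in libraries labelled male and 4.91 TPM in those labelled female. In 3 libraries it went against the label: NZW/LacJ labelled male had 4.08 TPM, and BXD34/TyJ and BXD69/RwwJ labelled female had 221 and 264 TPM. In BXD34/TyJ, the shallowest library, *Uty* alone made 208 of the 221 TPM, so its call rests mainly on that gene. These 3 are named below as going against their label by this sum only. Other males had at least 57.3 TPM and other females at most 15.4 TPM. The library labelled male of NZW/LacJ is at lymph node level and the other two are below it. No library was relabelled, and the counts and fits are also given without those of the 3 that they hold.

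Lymph node level was found in both sexes and in each of the 5 kinds of strain. It was reached by 32 of 67 female (47.8%) and 31 of 74 male libraries (41.9%), and by 32 of 65 and 30 of 73 without the 3 libraries that go against their label. In classical inbred strains 10 of 21 female and 11 of 23 male libraries were at the level, in BXD 14 of 32 and 13 of 34, and in AXB/BXA 5 of 9 and 4 of 11. Within BXD it was 22 of 45 libraries of the newer lines with the suffix RwwJ and 5 of 21 of the older lines with the suffix TyJ. The small families were uneven. In CXB the females had 172 TPM (CXB6/ByJ), 69.8 TPM (CXB13/HiAJ) and 0.419 TPM (CXB11/HiAJ) of *Cd79a*, and the 3 males had 0.815, 0.551 and 0.503 TPM. In BXH all 3 males were at the level, with 222, 137.85 and 40.2 TPM of *Cd79a*, as was 1 of 2 females (142.4 and 0.614 TPM).

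The sex comparison asks whether these genes differ between females and males once the strain is taken into account. In the 59 strains with both libraries, 3 of the 33 genes differed by the quasi-likelihood test of edgeR, with Benjamini-Hochberg adjustment over 16765 genes, of which 58.1% differed (28.4% higher and 29.8% lower in females). The share among the lymphocyte genes was thus far under that of all genes. The standard error of the log2 fold change (log2FC, female against male) was 0.13 for *Ighm*, 0.25 for *Cd247* and between 0.34 and 0.62 for the other genes, wide beside most of the differences.

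*Ighm* was the 1 gene lower in females. Its level was 16.4 to 4555 TPM (median 482 TPM) over all 67 female libraries and 96.3 to 1215 TPM (median 622 TPM) over the 74 males, so the ranges covered each other. In the matched strains the mean was 595 ± 547 CPM for females and 720 ± 312 CPM for males (SD over 59 strains), where CPM are counts divided by the TMM-scaled library total. The log2FC was -0.53 ± 0.13 (SE, adjusted p = 0.00044), and the female library was higher in 14 of 59 strains.

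*Jchain* and *Tcf7* were higher in females. *Jchain* was 0.241 to 835 TPM (median 8.78 TPM) in females and 0.138 to 390 TPM (median 2.89 TPM) in males. In the matched strains the mean was 39.7 ± 83.2 CPM for females and 27.1 ± 61.3 CPM for males, with a log2FC of 1.28 ± 0.36 (SE, adjusted p = 0.0021) and the female higher in 39 of 59 strains. *Tcf7* had a mean of 68.8 ± 79.7 CPM for females and 58.8 ± 83.3 CPM for males, with a log2FC of 1.09 ± 0.48 (SE, adjusted p = 0.047) and the female higher in 41 of 59 strains. Without AXB12/PgnJ, whose female library was the highest in many members, the log2FC of *Tcf7* was 1.01 and no longer passed (adjusted p = 0.065), and it did not pass either without a filter on low counts (adjusted p = 0.077). Without the strain term, no gene of the 33 passed in either the 59 strains or all libraries, and none had an unadjusted p under 0.05 in edgeR's test.

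The other 30 genes did not pass, although without NZW/LacJ *Igkc* did (log2FC 0.98, adjusted p = 0.044). For 31 of the 33 the log2FC was above 0, with a median of 0.60 against 0.012 over all genes tested. Of the B cell genes none of 9 passed (log2FC 0.12 to 0.91, adjusted p from 0.21), nor did any of the 9 T cell surface genes (0.013 to 0.94, adjusted p from 0.12) or the 3 signalling genes (0.54 to 0.60, adjusted p from 0.21). Within these strains, 14 had only the female and 7 only the male library at lymph node level (6 without NZW/LacJ), and the fit with that level in the model is given below. By DESeq2, 9 of the 33 genes were higher and 1 lower in females, against 4877 higher and 5299 lower among 16765 genes. The share of members higher was thus near that of all genes, and the share lower was far under it. The members beyond those of edgeR were *Igkc*, *Cd3d*, *Cd3e*, *Cd3g*, *Cd4*, *Cd8a* and *Cd8b1*. Of the genes outside the list, 0 of 10 other B cell genes passed, 1 of 10 other T cell genes (*Bcl11b*, higher), 2 of 9 plasma cell genes (*Igha* and *Sdc1*, higher), 2 of 8 cytotoxic and NK cell genes (higher) and 3 of 6 lymph node stroma genes (higher). All 5 mammary epithelial genes were higher, all 5 adipocyte and 4 of 5 macrophage genes lower, and of 4 lymphatic endothelial genes 2 were higher and 1 lower in females.

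When the mean log2 CPM of *Ms4a1*, *Cd79a* and *Cd79b* in each library was added to the model, the remaining 30 genes were compared at a like B cell level. Their standard errors then were smaller, and 9 of 30 differed by edgeR's quasi-likelihood test, against 59.3% of all genes. Against 28.6% of all genes, 4 of the 30 were higher in females, namely *Jchain* (log2FC 0.99, adjusted p = 0.0051), *Igkc* (0.50, adjusted p = 0.012), *Tcf7* (0.47, adjusted p = 0.0060) and *Cr2* (0.24, adjusted p = 0.011). Against 30.7%, 5 were lower in females, namely *Il7r* (-0.68, adjusted p = 0.00033), *Ighm* (-0.58, adjusted p = 4.01e-05), *Cd247* (-0.35, adjusted p = 0.010), *Cd22* (-0.29, adjusted p = 0.00012) and *Ighd* (-0.23, adjusted p = 0.016). The median log2FC of the 30 genes was 0.033 in this fit. The values for *Cd247*, *Cd22* and *Ighd* were above 0 without the covariate and did not pass there. Without NZW/LacJ the same 9 genes passed, in the same directions. The fit gives each gene 1 slope on the B cell level over all libraries. For these 9 genes rho with *Cd79a* was 0.051 (*Il7r*) to 0.49 (*Cr2*) below lymph node level. At it, rho was 0.29 (*Jchain*) to 0.94 (*Ighd*). How far transcripts of other cells enter these calls was not tested.

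**Figure D3:**
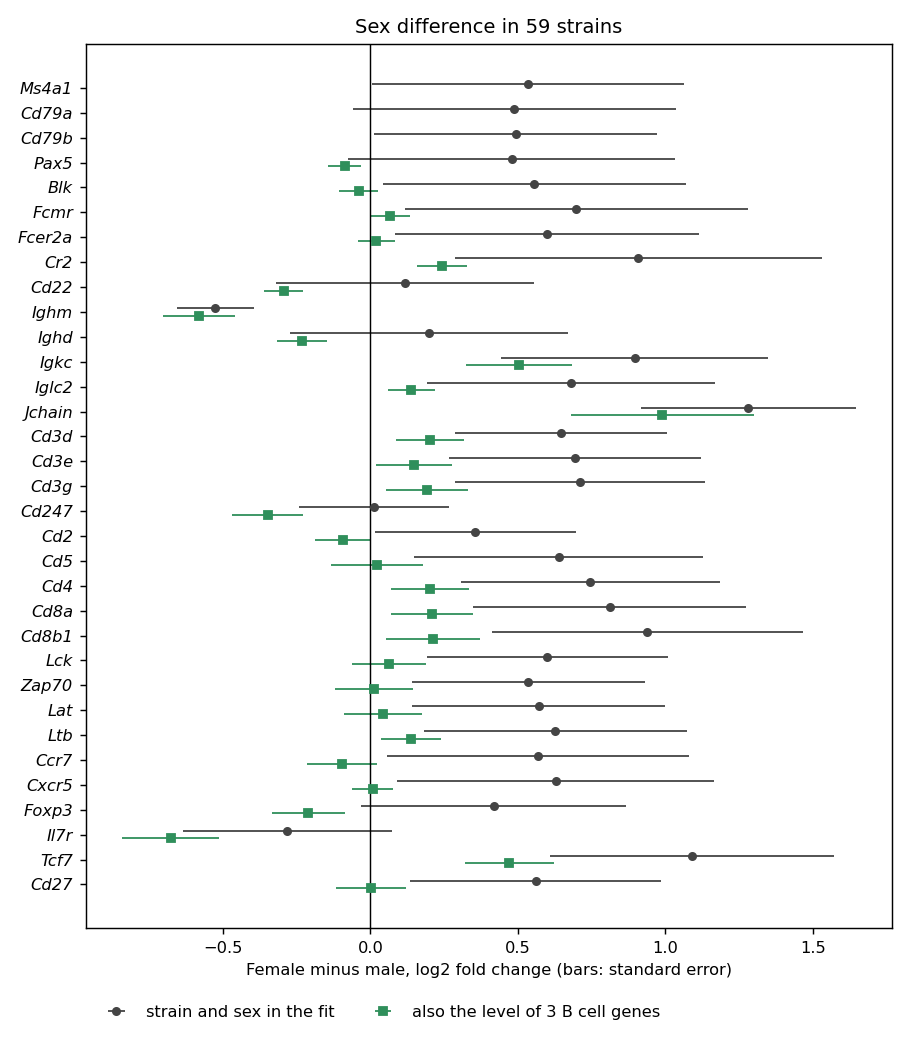
Female against male log2 fold change with its standard error in the 59 matched strains for each gene, from the model with strain and sex (black circles) and with the level of the 3 B cell genes added (green squares, not drawn for those 3 genes). Most circles lie near 0.6 with long bars, and the squares lie nearer to 0 with short bars, *Ighm* at -0.53 and -0.58 being the gene that hardly moves.

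Families were compared within each sex, with 1 library per strain as the replicate. AXB19/PgnJ, AXB19a/PgnJ and AXB19b/PgnJ share a line number in their names and were counted as separate AXB/BXA strains in both sexes. The AXB/BXA libraries may thus stand for fewer independent lines than their count. In females (21 classical inbred, 32 BXD and 9 AXB/BXA libraries) 1 of the 33 genes differed between families by edgeR's quasi-likelihood test, *Ighm* (adjusted p = 0.025), against 12% of 18281 genes. *Ighm* was 16.4 to 719 TPM (median 280 TPM) in classical inbred females, 89.3 to 1275 TPM (median 567 TPM) in BXD and 37.2 to 4555 TPM (median 550 TPM) in AXB/BXA. The ranges overlapped, and AXB/BXA was higher than the classical strains by a log2FC of 1.38 ± 0.38 (SE, adjusted p = 0.040), as 0.881% of all genes were, while BXD against classical was 0.78 ± 0.29 (adjusted p = 0.071). The call was lost without AXB12/PgnJ, which left 0 genes by adjusted p and 1 at an unadjusted p under 0.05 (edgeR), and it held without BXD34/TyJ and BXD69/RwwJ.

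In males (23 classical inbred, 34 BXD and 11 AXB/BXA libraries) 2 of the 33 genes differed between families by edgeR's quasi-likelihood test, *Ighm* (adjusted p = 0.0090) and *Jchain* (adjusted p = 0.035), against 7.07% of 17631 genes. *Ighm* was 115 to 1044 TPM (median 479 TPM) in classical inbred males, 315 to 1215 TPM (median 770 TPM) in BXD and 96.3 to 783 TPM (median 502 TPM) in AXB/BXA. BXD was higher than the classical strains by a log2FC of 0.61 ± 0.17 (SE, adjusted p = 0.014), as 2.69% of all genes were. *Jchain* had medians of 4.29, 1.73 and 3.57 TPM in the same order, with highest values of 390, 193 and 36.7 TPM. No pair of families passed for it, and without NZW/LacJ, whose library goes against its label, only *Ighm* passed. *Cd79a* had medians of 7.32, 2.03 and 55.5 TPM in classical, BXD and AXB/BXA females and of 19.97, 1.48 and 2.22 TPM in males, each within ranges from under 1 TPM to over 140 TPM, and did not pass in either sex.

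With the level of the 3 B cell genes in the model, 2 of 30 genes differed between families in females, *Ighm* and *Tcf7*, against 15.3% of all genes by edgeR's quasi-likelihood test, and only *Ighm* did without BXD34/TyJ and BXD69/RwwJ. In males 13 of 30 did, against 11.5% of all genes. Beside *Ighm* these were T cell genes: *Cd3d*, *Cd3e*, *Cd3g*, *Cd5*, *Cd8b1*, *Lck*, *Zap70*, *Lat*, *Ccr7*, *Foxp3*, *Tcf7* and *Cd27*. Of these, 10 were higher in AXB/BXA than in BXD males at a like B cell level, against 1.97% of all genes, as *Cd8b1* (log2FC 1.31 ± 0.34, adjusted p = 0.018), *Cd5* (1.27 ± 0.26, adjusted p = 0.0015) and *Cd3d* (1.08 ± 0.22, adjusted p = 0.0015) by the same test. *Foxp3* (-0.78 ± 0.17, adjusted p = 0.0014), *Lat* (-0.63 ± 0.19, adjusted p = 0.022) and *Ccr7* (-0.57 ± 0.18, adjusted p = 0.036) were lower in BXD than in classical inbred males, as 6.23% of all genes were. Without NZW/LacJ 12 of the 13 passed, *Ccr7* being the one lost, and the same 10 were higher in AXB/BXA than in BXD. The other T cell genes among the 13 followed *Cd3e*, with rho of 0.86 (*Foxp3*) to 0.98 (*Cd3g*) at lymph node level. Their calls are thus not separate observations. Whether the family differences themselves differed between the sexes was not tested.

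Pairs of libraries from 1 strain allow asking how far the level goes with the strain. Of the 59 matched strains, 17 had both libraries at lymph node level, 14 only the female, 7 only the male and 21 neither. Both were at the level in 8 BXD strains, 6 classical inbred strains (BALB/cJ, BTBR T<+> tf/J, C3H/HeJ, NZB/BlNJ, SJL/J and SWR/J), AXB19a/PgnJ, BXA2/PgnJ and BXH8/TyJ. Classical strains with only the female were C57BL/6J, FVB/NJ, MA/MyJ and SM/J, and those with only the male were C57BLKS/J, DBA/2J, I/LnJ and NZW/LacJ, the last by a library that goes against its label. Among strains with a library of 1 sex, 1 of 8 females (1 of 6 without BXD34/TyJ and BXD69/RwwJ) and 7 of 15 males were at the level.

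**Figure D4:**
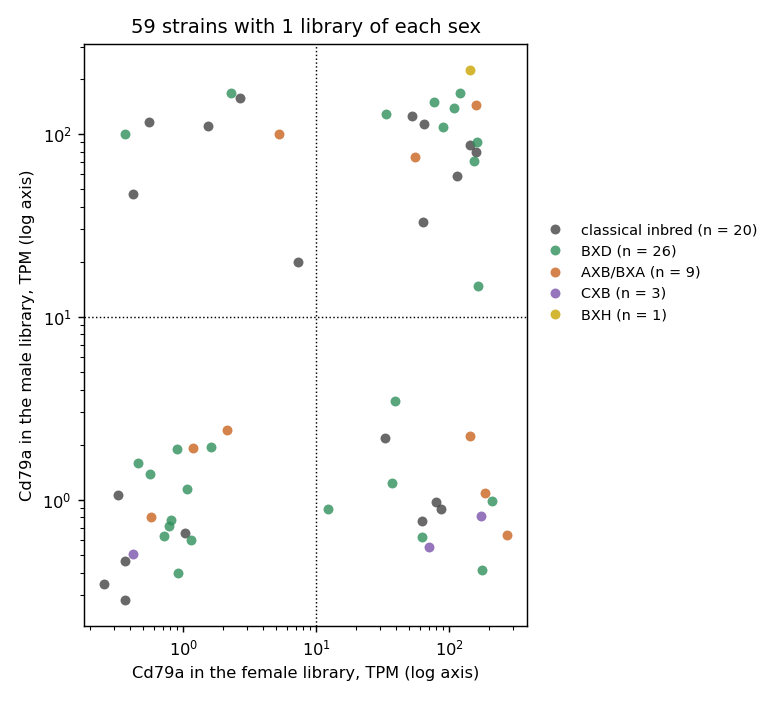
*Cd79a* in the female (x axis) and the male library (y axis) of 59 strains, in TPM on log axes with dotted lines at 10 TPM and colors for families. The strains fill all 4 quadrants, and the point at 7.32 and 19.97 TPM is PL/J, in which neither library was at lymph node level.

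Because the strains fall into these 4 separate clusters, no pooled correlation is given. On log2(TPM + 1), 5 genes in 4 clusters made 20 relations between the female and the male library. In the 17 strains with both at the level, Pearson's r was -0.14 for *Cd79a* (rho -0.13), 0.12 for *Ighd* (rho 0.059), 0.12 for *Cd22* (rho 0.16), 0.19 for *Cd3e* (rho 0.31) and 0.27 for *Jchain* (rho 0.30). None of these passed (permutation test, two-sided, adjusted p from 0.72 for r and from 0.61 for rho). In the 21 strains with neither, r was 0.61 for *Cd22* (permutation p = 0.012, adjusted p = 0.12), 0.58 for *Cd79a* (permutation p = 0.084, adjusted p = 0.33) and 0.55 for *Ighd* (permutation p = 0.0099, adjusted p = 0.12). Only the rho of *Cd22*, 0.67, passed there (permutation p = 0.0013, adjusted p = 0.025), and without the 2 strains farthest from the median female value its r was 0.56. In the 14 and 7 strains with 1 library at the level none of the 5 genes passed. Of these, *Jchain* in the strains with only the male at the level had r of 0.061 with NZW/LacJ and 0.90 in the 6 strains without it (exact permutation p = 0.017, adjusted p = 0.11).

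Levels relative to the lymphocytes gave another picture. For this the log2 ratio of a gene to the mean of *Ms4a1*, *Cd79a* and *Cd79b*, or for T cell genes to that of *Cd3d*, *Cd3e* and *Cd3g*, was compared in the 17 strains with both libraries at the level, a quantity chosen after the data were seen. These were the ratios of 27 genes and that of the Cd3 genes to the B cell genes. Of the genes compared by level above, *Ighd*, *Cd22* and *Jchain* are among the 27. Of these only *Ighd* passed (r of 0.76), while *Cd22* (r of 0.46, adjusted permutation p = 0.077) and *Jchain* did not. The 28 ratios had r above 0 between the female and the male library, with a median of 0.59, and 21 passed by Pearson's r and 23 by Spearman's rho (permutation tests, two-sided, 100000 resamples, adjusted over 28), 19 of them by both. The 28 ratios share 2 references, so that a strain's value in a reference gene enters many of them, and they are not independent. The 17 strains are not unrelated, since 8 are BXD lines of the same 2 parents. Sequence differences from the reference transcriptome, which would also recur in both sexes of a strain, were not tested.

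The strains named as lowest and highest are those by the mean of both sexes. One of them, BXD49/RwwJ, is named for *Cr2* here and for *Cd2* and *Foxp3* below. Its male library was the nearest above the minimum, with 10.2 TPM of *Ms4a1* and 9.24 TPM of *Cd3e*. How far transcripts from the fat itself enter its ratios was not tested. *Fcer2a* had the highest r (0.90, rho of 0.73, permutation p = 1e-04, adjusted p = 0.0018 for r). Its log2 ratio to the B cell genes was -1.64 in both the female and the male of NZB/BlNJ and 0.45 and 0.52 in SWR/J, and r was 0.65 without the 2 strains farthest from the median. *Cr2* (r of 0.80, rho of 0.68, permutation p = 0.00016, adjusted p = 0.0018 for r) ran from -1.93 and -1.73 in BXD49/RwwJ to 0.50 and -0.072 in SJL/J, with r of 0.53 without 2 strains. NZB/BlNJ was also lowest in both sexes for *Pax5* (r of 0.73, rho of 0.72), at -2.19 and -2.25, with r of 0.41 without 2 strains. For *Ighd* (r of 0.76, rho of 0.86) the lowest male was that of NZB/BlNJ (0.43) and the lowest female that of SJL/J (0.84). *Igkc* (r of 0.55, rho of 0.35) was highest in the NZB/BlNJ male (6.33) and the BTBR T<+> tf/J female (5.38), and its r fell to 0.076 without 2 strains, so that this relation rests on them. *Jchain*, with 0.47 and an adjusted permutation p of 0.066, did not pass. It had the widest spread over the 63 libraries at the level, from -7.01 in the BXD40/TyJ male to 2.94 in the NZB/BlNJ male.

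Among the T cell genes *Cd8a* (r of 0.82, rho of 0.80, permutation p = 0.0002, adjusted p = 0.0018 for r) was lowest against the Cd3 genes in BXD87/RwwJ, at -1.42 and -1.53, and highest in BXD66/RwwJ, at -0.46 and -0.33. *Cd2* (r of 0.79, rho of 0.82) ran from -0.39 and -0.44 in SJL/J to 0.51 and 0.51 in BXD49/RwwJ, although the highest single libraries were the BXD85/RwwJ female (0.63) and the BXD48/RwwJ male (0.55). *Foxp3* (r of 0.75, rho of 0.66) ran from -4.73 and -4.28 in BXD56/RwwJ to -2.94 and -2.70 in BXD49/RwwJ, and *Lck* (r of 0.73, rho of 0.74) from -0.14 and -0.17 in SJL/J to 0.54 and 0.32 in BXH8/TyJ, with the BXD48/RwwJ male higher at 0.37. Without 2 strains these had r of 0.68, 0.72, 0.68 and 0.57, in the same order. *Il7r* (r of 0.53) had 0.20 without 2 strains and rests on them. The ratio of the Cd3 genes to the B cell genes passed as well, with r of 0.57 (permutation p = 0.016, adjusted p = 0.028) and rho of 0.67 (permutation p = 0.0042, adjusted p = 0.012). It was -1.08 and -1.81 in BXH8/TyJ and 0.85 and 0.090 in BTBR T<+> tf/J, so that the female and the male of the first strain held fewer T cell transcripts per B cell transcript than those of the second.

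**Figure D5:**
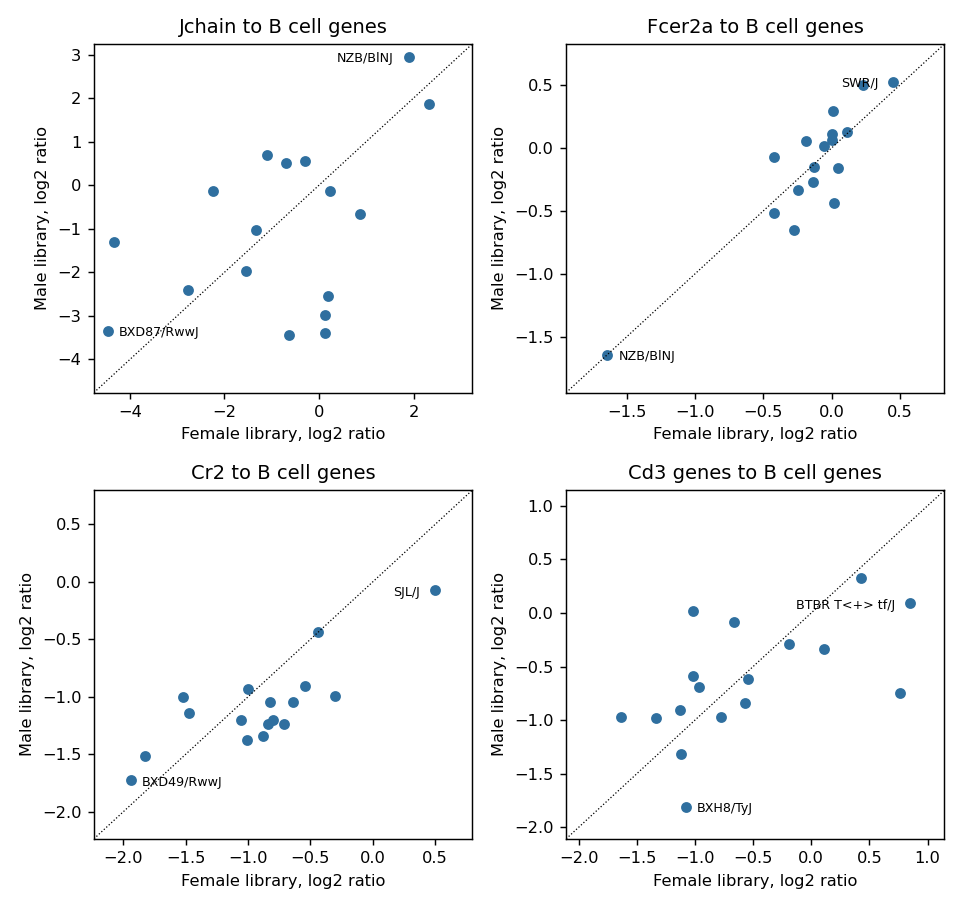
Log2 ratio in the female (x axis) and the male library (y axis) of the 17 strains with both at lymph node level, for *Jchain*, *Fcer2a* and *Cr2* to the 3 B cell genes and for the 3 Cd3 genes to the B cell genes, with a dotted line of equality. The points of *Fcer2a* lie close to the line, with NZB/BlNJ at -1.64 in both sexes, while those of *Jchain* scatter over more than 6 units on each axis.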

How the data were processed

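RNA was measured in iWAT of 67 female and 74 male mice by stranded, paired-end RNA-seq. The authors quantified reads with kallisto (version 0.46.1 per the labels) on an Ensembl transcriptome (GRCm38), with gene sums made by tximport. Estimated counts as deposited are not normalized between libraries (51.9% of those above 0 are not whole), and the deposited TPM values were scaled by the authors for length and total. Of 36558 identifiers, 35856 were paired with a symbol. Reads of near-identical copies can be split between them. Depth was 6.27 M to 78.6 M counts, which limits low values only, and intervals of counting error are not given.

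The members, lists and tests were chosen with earlier results of these data known, and the genes named are all 33 members, the marker lists and the 10 genes most like *Cd79a* and *Cd3e*, some of which are not reported here. Counts were rounded, filtered with filterByExpr, scaled with TMM and tested with edgeR 4.0.16 in R 4.3.3, with the study's model of strain and sex for 59 strains, and with family within each sex. The Benjamini-Hochberg method was applied over all genes tested, at 0.05. The strain is the pair given by the labels, and over 15038 genes the deviations of its 2 libraries had a mean correlation of 0.42, against -0.0071 between strains. Since samples differ by mouse and strain at once, p-values measure the spread over strains. The correlation of a strain's libraries was planned over all 59 strains and is given within clusters, because the levels form clusters. Alternatives were DESeq2 1.42.0, limma 3.58.1 on log2(TPM + 1) and log2(TPM + 0.1), RLE factors, library totals, other filters, no strain term, and left-out libraries. Steps were tested on simulated data. Python packages were scipy 1.17.1, numpy 2.4.6, pandas 2.3.3 and matplotlib 3.10.9. Promoter windows are from RefSeq.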

Additional observations from a re-analysis of the deposited data

Results flagged for a closer look

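Each of the 33 genes was checked among the 9 AXB/BXA female libraries for a value far from the others, and 4 of 33 checks met Dixon's criterion. Its nominal rate of about 1 of 20 holds for normally distributed values. The TPM values are skewed and the 33 checks share libraries, so the count is not set against chance. All 4 were in the female library of AXB12/PgnJ. There *Ighm* was at 4555 TPM, where the next highest library, AXB19a/PgnJ, had 991 TPM. *Igkc* was at 9878 TPM against 1626 TPM in AXB19a/PgnJ, and *Jchain* at 835 TPM against 151 TPM in the same library. *Ltb* was at 207 TPM, with AXB19/PgnJ the next highest. In the AXB12/PgnJ female library *Ighg2c*, an IgG constant region, was also at 1436 TPM, the highest of all libraries, as was *Mzb1*, a gene of antibody-secreting cells, at 74.0 TPM.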

How the results depend on the processing

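Of the 33 genes, 3 passed in the comparison of the sexes as reported, 10 with DESeq2, 9 of 30 with the B cell level in the model (9 also without NZW/LacJ), and 0 with no replicate block in either the 59 strains or all libraries, which drops the strain pairing. Other settings gave 2 to 4. With DESeq2, 4877 of all 16765 genes were higher and 5299 lower in females. With library totals in place of TMM the median log2FC of all genes was 0.12 in place of 0.012, with 7410 genes higher and 2774 lower in females in place of 4759 and 4988, and the median of the members was 0.71. With the B cell level in the model the sign turned for *Pax5* (-0.087), *Blk* (-0.040), *Cd22* (-0.29), *Ighd* (-0.23), *Cd247* (-0.35), *Cd2* (-0.092), *Ccr7* (-0.096) and *Foxp3* (-0.21). In that model without NZW/LacJ these were -0.074, -0.024, -0.30, -0.24, -0.35, -0.088, -0.099 and -0.20, in the same order, and *Cxcr5* turned too (-0.0012). Over all libraries it turned for *Ighd* (-0.014), *Cd247* (-0.068) and *Foxp3* (-0.049), and for *Cd247* also without a filter (-0.0044) and without AXB12/PgnJ (-0.029). Among families, 1 gene passed in females as reported, 0 with limma, 2 with BXD split into TyJ and RwwJ lines, 2 with the B cell level and 0 without AXB12/PgnJ. In males it was 2 as reported, 1 with limma, 1 without NZW/LacJ, 13 of 30 with the B cell level and 12 of 30 with it but without NZW/LacJ. The number of libraries at lymph node level was 39 with 50 TPM in place of 63 and 60 to 65 otherwise. Some weak correlations between a strain's libraries changed sign. These were *Ighd* with both at the level (-0.051 without 2 strains), *Jchain* with only the female at it (-0.080 without AXB12/PgnJ, -0.097 on CPM and -0.15 without 2 strains), and, with only the male at it, *Jchain* (0.061 as reported, -0.059 with a pseudocount of 0.1, -0.14 on CPM, but 0.90 without NZW/LacJ and 0.84 without 2 strains) and *Cd3e* (-0.0060 without 2 strains). The choices made without AXB12/PgnJ, without the libraries that go against their labels in the family fits and in the models with the B cell level, and the log2 ratios were added after seeing the data. Other than the covariate and left-out strains, whose construction changes the model or samples, the cause was not tested. Depth and 1 library per strain and sex limit the precision.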

Other observations

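Immunoglobulin genes outside the 33 members were each highest in a different library. *Ighg1* reached 1192 TPM in the male library of BTBR T<+> tf/J, with a median of 0.721 TPM over all libraries. *Ighg2b* reached 493.03 TPM in the male library of NZB/BlNJ and *Ighg3* 223 TPM in the female library of C57BL/6J, with medians of 0.857 and 0.613 TPM. *Igha* reached 159 TPM in the female library of BXD49/RwwJ. In that library *Igkc* was at 3147 TPM and *Jchain* at 258 TPM, while the male library of the strain had 135.7 and 9.01 TPM. *Glycam1* reached 2798 TPM in the female library of SJL/J, which was also the highest in *Cr2*.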
